A study of Mus musculus with 4 samples.

Results

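Fatty acid binding proteins are small cytosolic carriers that bind long-chain fatty acids and related hydrophobic ligands in an internal cavity and move them between membranes, enzymes and the nucleus. In the small intestine Fabp1 and Fabp2 are the main carriers of dietary fatty acids in absorptive cells, Fabp6 carries bile acids in the ileum, and Fabp5, the epidermal form, is found in many epithelia, where it can hand ligands to the nuclear receptor PPAR delta. Fabp4 is the carrier of adipocytes, capillary endothelium and macrophages, and Fabp7 that of brain and glial cells. The 6 genes described here, Fabp1, Fabp2, Fabp4, Fabp5, Fabp6 and Fabp7, were taken as every array probe whose RefSeq accession maps to one of these symbols. This gave 6 probes, 1 per gene and each printed as 1 spot, of 55681 probes on the array, or 6 of 21368 named genes. The set was chosen on the Fabp5 signal of these same arrays, which is higher in the knockout, so the differences between knockout and control of these 6 genes are a description and carry no test.

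The RNA came from Lgr5-high intestinal stem cells, which divide at the crypt base, isolated by flow cytometry. The knockout group had the genotype Ifnar1-/-:Lgr5-EGFP-Ires-CreERT2 and lacked a chain of the type I interferon receptor; the control group had the genotype Lgr5-EGFP-Ires-CreERT2. Both groups carried the reporter and CreERT2 at Lgr5, and both were given poly(I:C), an artificial double-stranded RNA used to provoke interferon, at 2 mg/kg daily for 1 week by the design text (the sample labels speak only of 1 week after injection), so no untreated cells enter the comparison. Each group had 2 samples, each hybridised to its own single-colour Agilent array, with replicate 1 of both groups on slide 1 and replicate 2 of both on slide 2. The labels give no age or sex, no intestinal segment, no cell type to which the Ifnar1 deficiency is restricted, and nothing on pooling or on whether samples came from separate animals, so p-values cover only how far these samples spread, which may be technical.

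The scanner software called 63.3% to 67.7% of spots per array well above background and 0 saturated, and precision is limited by having 4 arrays. Levels are given as log2 signals minus the 75th percentile of the same array, so that 0 is the brightness at that percentile. Ifnar1 was at -1.76 and -2.28 in the knockout, against -0.21 and -0.37 in the control, 3.31-fold lower under the knockout label (limma adjusted p = 0.0496 with the slide block and 0.478 without it); whether the probes fall in the deleted sequence is unknown here, so this check of the labels is limited. Lgr5, the stem cell receptor used for the sort, was at 3.32 and 2.93 in the knockout and at 3.04 and 2.82 in the control, and 11 of 11 measured stem cell markers were well above background on all 4 arrays. Over 24865 genes tested, limma without a slide term called 0 genes higher (0% of those tested) and 0 lower in the knockout, while 258 were higher and 427 lower before adjustment (p under 0.05). With the slide as a block it called 8 higher (0.0322%) and 82 lower (0.33%). The 8 include Fabp5, which was chosen for this difference, so its place there is no test.

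Fabp5 was the member with the widest separation between groups. Its probe read 772 and 808 units of processed signal in the knockout, against 358 and 383 in the control. On the relative log2 scale it was at 1.72 and 1.67 in the knockout and at 0.56 and 0.63 in the control. The groups did not overlap, and both knockout arrays lay above both control arrays by at least 1.04. The means were 1.69 ± 0.03 in the knockout and 0.60 ± 0.05 in the control (SD, n = 2), a difference of 1.10, or 2.14-fold higher. Within slide 1 the knockout was 2.23-fold higher and within slide 2 it was 2.05-fold higher. The scanner software's own error estimate for the well-above-background Fabp spots was between 10% and 10.1% of the signal. Fabp5 rests on 1 probe and 1 spot per array, so no second probe bears on it here.

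**Figure D1:**
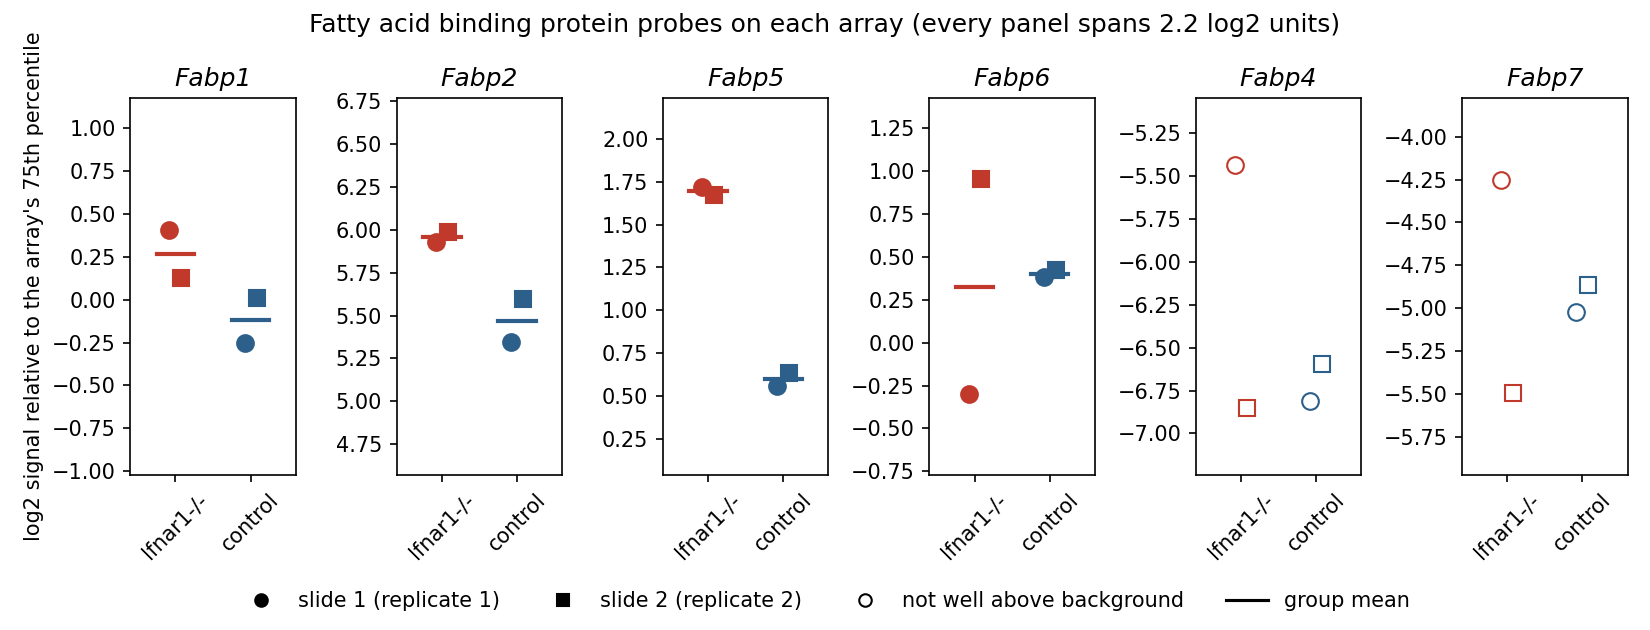
Signal of each Fabp probe on each array (vertical axis: log2 signal minus the 75th percentile of its array; circles slide 1, squares slide 2; open symbols were not well above background; horizontal lines are means of 2 arrays). The Fabp5 knockout arrays, at 1.72 and 1.67, lie clear of the control arrays at 0.56 and 0.63, the Fabp6 knockout arrays lie on either side of the controls, and Fabp4 and Fabp7 are open on all 4 arrays.

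The enterocyte carriers Fabp1 and Fabp2 were also higher in both knockout arrays, by less. Fabp2, the intestinal form, was at 5.93 and 5.99 in the knockout and at 5.35 and 5.59 in the control. The knockout arrays lay above both controls by at least 0.33, and the means were 5.96 ± 0.04 in the knockout and 5.47 ± 0.17 in the control (SD, n = 2). The difference was 0.49, or 1.40-fold, with 0.58 on slide 1 and 0.40 on slide 2. Fabp1, the liver form, which the small intestine also makes, was at 0.40 and 0.13 in the knockout and at -0.25 and 0.01 in the control. The means were 0.27 ± 0.19 in the knockout and -0.12 ± 0.18 in the control (SD, n = 2). Its groups were separated by 0.12, less than the 0.27 between the knockout arrays and the 0.26 between the control arrays. The Fabp1 difference of 0.39 (1.31-fold) came mostly from slide 1, at 0.66, while slide 2 gave 0.12. Counting Fabp5, 3 of the 4 measured members had both knockout arrays above both control arrays; over all genes tested 14.5% did so and 11.5% had both below, and since this contrast chose the members nothing is read from their count. A difference of at least 2-fold upward in group means was seen for 1 of the 4, and for 1.15% of all genes. Fabp5 was also the 1 member higher by at least 1 on both slides, as were 0.43% of all genes.

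The values of Fabp6, the ileal bile acid carrier, ran in opposite directions on the slides. It was at -0.30 and 0.95 in the knockout, against 0.38 and 0.42 in the control. The knockout arrays thus held both the lowest and the highest value, 1.25 apart, while the controls were 0.04 apart. The knockout was lower by 0.68 on slide 1 (1.61-fold) and higher by 0.53 on slide 2 (1.44-fold), and the means were 0.33 ± 0.88 in the knockout and 0.40 ± 0.03 in the control (SD, n = 2). The apical bile acid transporter Slc10a2, a gene of the terminal ileum, had a processed signal of 2.64 and 40.7 in the knockout and of 2.25 and 2.57 in the control, and was well above background on the second knockout array alone, where Fabp6 was highest. Nr1h4, which encodes the bile acid receptor FXR that switches on Fabp6, was at -0.55 and 0.67 in the knockout and at 0.61 and 0.74 in the control, so that the first knockout array was lowest for both genes. Abcc3, an exporter of conjugated bile acids, was likewise lowest on the first knockout array and highest on the second, at 2.01 and 2.97 in the knockout and 2.36 and 2.68 in the control. Other genes of the bile acid list had a different order. Slc51b, a subunit of the basolateral bile acid exporter, had a signal of 18.2 and 8.76 in the knockout and 27.5 and 11.1 in the control and was well above background on both slide 1 arrays alone. Its partner Slc51a was at -4.08 and -4.06 in the knockout and -3.78 and -3.78 in the control, and Gata4, a factor of the proximal small intestine, at 2.98 and 2.26 in the knockout and 3.02 and 2.25 in the control. Whether the sorts differed in intestinal segment was not tested, and the labels give none.

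**Figure D2:**
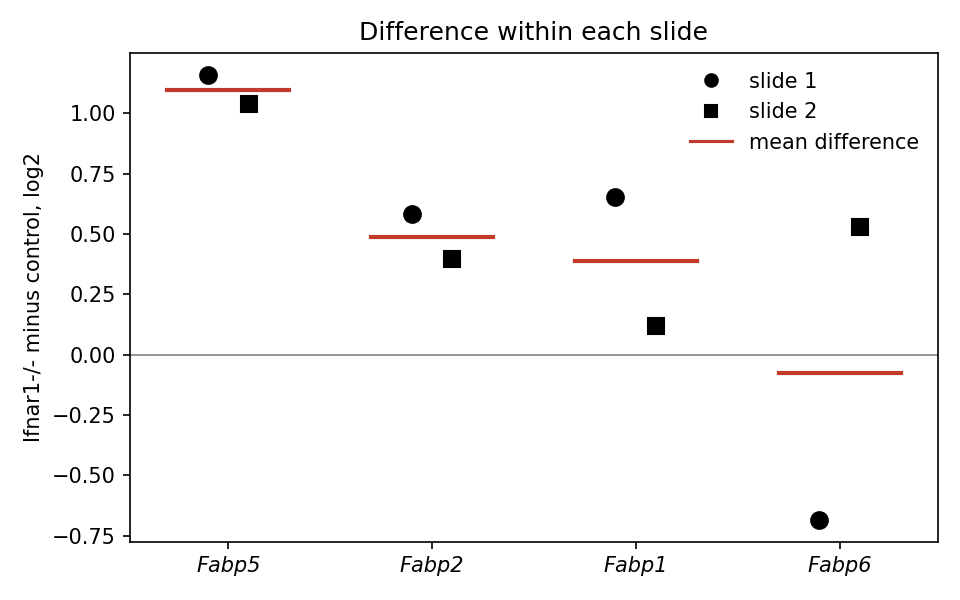
Knockout minus control within each slide for the 4 measured members (vertical axis: log2 difference; circles slide 1, squares slide 2; red lines are the mean of the slides). Fabp5 lies above 1 on both slides, Fabp2 and Fabp1 lie above 0 on both, and Fabp6 is at -0.68 on slide 1 and 0.53 on slide 2.

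The promoters of Fabp1, Fabp2 and Fabp6 are shown because these carriers are known targets of nuclear receptors that bind fatty acids or bile acids, and they are the measured members with a RefSeq promoter here. RefSeq sequences of build GRCm38.p6 matched 4 of the 6 members (Fabp1, Fabp2, Fabp6 and Fabp7); Fabp4 and Fabp5 were not matched. Each line holds the 250 bases before the start of the gene, 5′ to 3′ on the gene's strand. Capitals mark 3 motifs: TATAAA (the TATA box), the PPAR direct repeat (AGGNCA, 1 base of any kind, AGGNCA, the form bound by PPAR with its partner RXR) and CAAAGNNCA (letters bound by HNF4), searched on both strands.
Fabp1, chr6:71199629-71199878, plus strand: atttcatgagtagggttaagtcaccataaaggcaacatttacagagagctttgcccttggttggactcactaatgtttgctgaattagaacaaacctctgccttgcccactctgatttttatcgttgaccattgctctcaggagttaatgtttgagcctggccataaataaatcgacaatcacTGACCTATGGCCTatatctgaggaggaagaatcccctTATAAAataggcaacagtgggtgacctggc
Fabp2, chr3:122894822-122895071, plus strand: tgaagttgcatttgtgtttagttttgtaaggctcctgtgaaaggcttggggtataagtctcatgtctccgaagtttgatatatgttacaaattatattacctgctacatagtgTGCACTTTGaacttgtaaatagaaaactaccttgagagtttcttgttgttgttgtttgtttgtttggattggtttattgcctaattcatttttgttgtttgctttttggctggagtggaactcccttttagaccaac
Fabp6, chr11:43601563-43601812, minus strand: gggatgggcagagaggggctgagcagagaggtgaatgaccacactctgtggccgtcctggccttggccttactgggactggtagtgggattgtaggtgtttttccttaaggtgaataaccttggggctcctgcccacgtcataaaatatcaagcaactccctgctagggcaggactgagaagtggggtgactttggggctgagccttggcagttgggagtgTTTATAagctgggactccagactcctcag

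The Fabp1 promoter held the direct repeat, read on the opposite strand, from 67 to 55 bases before the start. The AGGTCA half-site from 67 to 62 is part of that repeat, and a separate half-site lies from 9 to 4. A TATA box lies from 30 to 25 bases before the start. The direct repeat letters occurred in 0.338% of 32851 promoter windows of the same length, and the TATA letters in 12.4%. The Fabp2 window held the HNF4 letters, found in 5.49% of windows, and no TATA letters, while the Fabp6 window held TATA letters read on the opposite strand. Letters bound by the bile acid receptor FXR were not searched, so nothing is said here on whether the Fabp6 window holds them. The half-site letters AGGTCA alone, not set in capitals, occurred in 14% of windows. The interferon-response letters, GAAA repeated after a gap of 2 bases and present in 2.98% of windows, were not found in the 4 windows of Fabp1, Fabp2, Fabp6 and Fabp7, which says only that these letters are not there. A match describes letters and not binding.

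Fabp4 and Fabp7 were not well above background on any array. Fabp4, the adipocyte and endothelial carrier, read 5.43 and 2.19 units in the knockout and 2.16 and 2.55 in the control, all below 10.4, the lowest signal called well above background on any of the arrays. Fabp7, the glial carrier, read 12.3 and 5.63 units in the knockout and 7.48 and 8.46 in the control. No fold is given for either, and both stayed out of the fits, so 4 of the 6 members passed the filter on dim probes. Some markers of the cells that usually hold Fabp4 were well above background, as were 63.3% to 67.7% of all spots on a single array. The counts of the marker lists below are therefore not read as presence of these cells. Of 10 endothelial genes 6 were well above background on all 4 arrays, while Cdh5 and Emcn were so on none. Kdr, a receptor for vascular growth factor, was at 2.57 and 2.57 in the knockout and 2.38 and 2.59 in the control. These Kdr values come from 1 of its 2 probes, and the other did not pass the filter. Of 8 adipocyte genes 5 were well above background on all 4 arrays, and Adipoq, Lep and Cfd on none. Of 10 macrophage and other leukocyte genes with a probe 8 were well above background on all 4 arrays and 0 on none. Of these 10, 1 was called lower with the slide block, the lysozyme gene Lyz2 (limma, adjusted p = 0.00828, and 0.293 without the block). Lyz2 differed by -2.64, and the lysozyme gene Lyz1 of the Paneth list by -2.01. The median difference of the leukocyte list was 0.01. Of 9 glial and neuronal genes, for the cells that usually hold Fabp7, 6 were well above background on all 4 arrays and 3, among them S100b, on none. The summed signal of the measured markers, in multiples of the 75th percentile, was 7.66 and 7.90 in the knockout and 6.61 and 7.77 in the control for the endothelial list. It was 4.34 and 5.64 in the knockout and 4.24 and 5.14 in the control for the adipocyte list. For the leukocyte list it was 233 and 348 in the knockout and 239 and 358 in the control, and for the glial and neuronal list 83.2 and 83.3 in the knockout and 90.8 and 91.1 in the control. Most of each sum came from 1 bright gene: Kdr, Pnpla2, Itgam and Elavl4 in the order of the lists. For Elavl4, as for Kdr, 1 of 2 probes passed the filter. Itgam was at 7.67 and 8.34 in the knockout and 7.69 and 8.36 in the control. The sums therefore say little about the other genes of these lists.

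A measure that the choice of members did not use is the difference between the slides, tested with limma on all genes with group and slide as terms. Over all genes 18.5% differed between slides after Benjamini-Hochberg adjustment (11.6% higher and 6.93% lower on slide 2), and 0 of the 4 measured members did, with 0 at an unadjusted p under 0.05. Without the intensity trend in the fit 0 genes differed between slides (7512 at an unadjusted p under 0.05), so members and other genes are not set apart there. Fabp5 differed between slides by 0.02 (limma, adjusted p = 0.935) and Fabp1 by -0.01 (slide 2 minus slide 1; adjusted p = 0.983). The largest slide differences were 0.15 for Fabp2 (adjusted p = 0.22) and 0.64 for Fabp6 (adjusted p = 0.178). A p above the threshold does not show that the slides were equal, and for Fabp6 the 2 groups moved unequally between slides, as given above.

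Genes around the carriers were followed in 8 lists with 116 genes, of which 94 passed the filter. None of the 94 passed over all genes in either limma fit; before adjustment (p under 0.05) 1 was higher and 2 were lower without the block, and 8 were higher and 5 lower with it, or 8.51% and 5.32%, near the 7.31% and 4.93% of all genes. Both knockout arrays lay above both controls for 13 of the 94 and below for 9, or 13.8% and 9.57%, near the 14.5% and 11.5% of all genes. Their median difference was 0.02, as was that of all genes tested. Of these 94 genes 0 were higher by 1 or more on the log2 scale, and 2, Apobec1 and Hey1, were lower by that much. Hey1, also among the 9 below both controls, passed the filter through the control group alone. Nothing is therefore read from its place in these counts. Genes that did not pass the filter, such as Slc10a2 and Cd36, are not counted here.

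**Figure D3:**
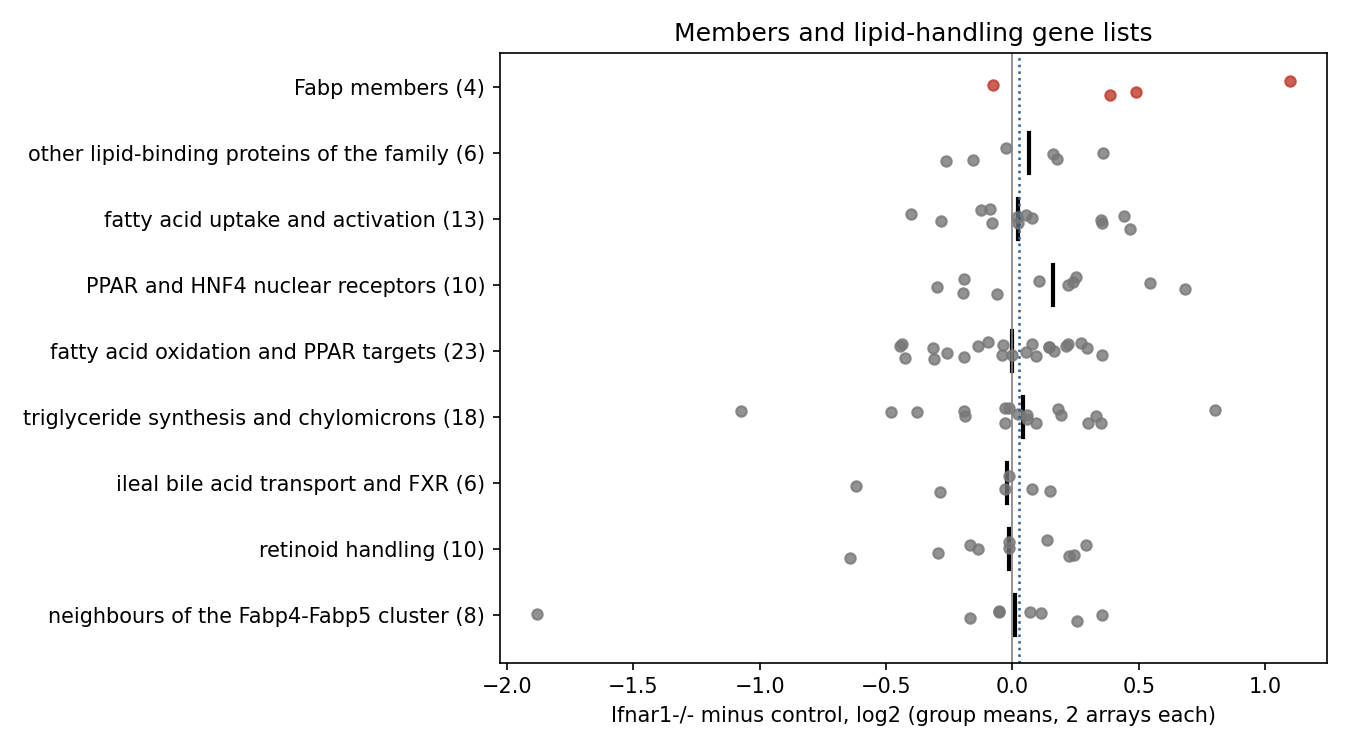
Knockout minus control in group means (horizontal axis, log2; 2 arrays per group) for the 4 measured members (red) and for each gene of the 8 lists (grey; the number measured stands in brackets, black bars are list medians, the dotted line is the median of all genes). List medians lie between -0.02 and 0.16, and the Fabp5 point at 1.10 is the farthest to the right.

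Other lipid carriers of the same protein family gave small differences. Of 9 listed, 6 were measured, with a median of 0.07. Fabp3, the heart form, had 2 probes that differed by -0.26 and -0.27, at -2.01 and -1.78 in the knockout and -1.99 and -1.27 in the control for the brighter. Rbp2, the intestinal retinol carrier, differed by 0.36 with groups that did not overlap (limma with the slide block, adjusted p = 0.522). Crabp2, which carries retinoic acid and competes with Fabp5 for it, was at 2.81 and 2.19 in the knockout and at 2.06 and 3.25 in the control, so its groups overlapped. Fabp9, known from testis, was well above background on both slide 2 arrays and on neither slide 1 array. Pmp2, a myelin carrier, was not well above background on any array, and Fabp12 was so with 1 of its 2 probes on the first control array alone.

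Fabp5 lies in a row of carrier genes on chromosome 3, in the order Fabp5, Pmp2, Fabp9, Fabp4 and Fabp12 by the gene table. Apart from Fabp5 itself, none of this row was well above background on all 4 arrays. Of 12 further neighbours, 8 were measured, with a median difference of 0.01 and 0 passing in either fit. Hey1, a Notch-induced repressor, entered the tests through the control group, since 1 of the 2 knockout arrays had it well above background; it read -4.33 and -3.46 in the knockout and -2.71 and -1.33 in the control, so no fold is given. Mrps28, a mitochondrial ribosome protein gene, differed by 0.35 with overlapping groups.

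The PPAR and HNF4 receptors, with their RXR partners and PGC-1 coactivators, had a median of 0.16 over 10 genes, with 0 passing over all genes. That median was -0.08 without knockout replicate 2, 0.01 without control replicate 2 and 0.06 with a gene's probes averaged. Ppara, the receptor that drives fatty acid oxidation genes, was at 1.33 and 2.04 in the knockout and at 0.62 and 1.38 in the control. Its difference was 0.71 on slide 1 and 0.66 on slide 2, and its 3 probes lay on the same side (limma with the slide block, adjusted p = 0.117). Pparg, best known from adipocytes, differed by 0.55 (adjusted p = 0.348). Ppard, the receptor that Fabp5 is known to supply, was at 0.72 and 0.58 in the knockout and 0.53 and 0.26 in the control, a difference of 0.25 (adjusted p = 0.474). Hnf4g, an enterocyte factor, differed by -0.30 (adjusted p = 0.619). Its groups overlapped, with -0.71 on slide 1 and 0.11 on slide 2.

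Fatty acid oxidation genes and other PPAR targets did not move in 1 direction. The 23 measured had a median of -0.002, with 4 above both controls in both knockout arrays (17.4%, against 14.5% of all genes) and 2 below (8.7%, against 11.5%), and 0 passing in either fit. Acadl, a long-chain acyl-CoA dehydrogenase, differed by -0.45 (limma with the slide block, adjusted p = 0.171), and Acot1, a cytosolic acyl-CoA thioesterase, by -0.43 (adjusted p = 0.277). Acadm, the medium-chain acyl-CoA dehydrogenase of beta-oxidation, differed by 0.36.

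Uptake and activation genes had a median of 0.02 over 13 measured. Got2, a mitochondrial aminotransferase also described as a membrane fatty acid binding protein, was higher by 0.46, with groups that did not overlap (limma with the slide block, adjusted p = 0.226). Acsl3, an acyl-CoA synthetase of lipid droplets, differed by 0.35 (adjusted p = 0.289) and Acsl4, which prefers arachidonic acid, by 0.44 (adjusted p = 0.446). Slc27a1, a fatty acid transport protein, differed by -0.28 (adjusted p = 0.458). Cd36, a fatty acid translocase, was not well above background on any array.

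Triglyceride and chylomicron genes had a median of 0.04 over 18 measured. Apoa4, an apolipoprotein of chylomicrons made by enterocytes, was at -1.09 and -0.95 in the knockout and at -2.12 and -1.53 in the control, a difference of 0.80 (limma with the slide block, adjusted p = 0.281). Apobec1, the enzyme that edits Apob RNA, was at -1.20 and 0.06 in the knockout and at 0.52 and 0.49 in the control, a difference of -1.07 (adjusted p = 0.319). Agpat2, a step of glycerolipid synthesis, differed by -0.38, with -0.60 on slide 1 and -0.15 on slide 2. Gpat4, an earlier step, differed by 0.30, with 0.60 on slide 1 and -0.004 on slide 2. Bile acid genes other than Fabp6 had a median of -0.02 over 6 measured of 10 listed; Nr1h4 had the lowest difference, -0.62 (adjusted p = 0.434). Fgf15, an ileal hormone gene induced by FXR, was not well above background on any array. Retinoid genes had a median of -0.01 over 10 measured of 16; the retinoic acid hydroxylase gene Cyp26b1 differed by -0.64 (adjusted p = 0.382) and Dhrs4, a retinal reductase, by 0.29 (adjusted p = 0.327).

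In bulk sorts fewer cells of a type and less RNA per cell cannot be told apart. Markers of enterocytes, the cells that hold Fabp1 and Fabp2, are given beside these carriers. Of 13 measured, 7 had both knockout arrays above both controls (53.8%, against 14.5% of all genes) and 1 both below (7.69%, against 11.5%); Lct, 1 of the 7, passed the filter through the knockout alone. Their median difference was 0.37, and the medians within slides were 0.06 for slide 1 and 0.22 for slide 2. Alpi, the brush border phosphatase, was 1.14 higher and Anpep, a brush border peptidase, 0.90 lower, and neither passed (limma with the block, adjusted p = 0.25 and 0.179). The summed signal of the list was 18.6 and 21.4 in the knockout and 23.4 and 18.9 in the control, in multiples of the array's 75th percentile, so it overlapped. Most of this sum came from the bright genes Mgam and Dpp4, which differed by -0.13 and -0.16. The sum therefore says little about the dimmer genes of the list. No enterocyte marker passed in either fit. An upward share is not particular to this list. Of 11 measured stem cell markers, 5 had both knockout arrays above both controls and 0 both below, with a median difference of 0.13. Paneth cell markers were lower in both knockout arrays for all 8 measured. Limma called 6 of the 8 lower with the slide block and 0 without it (8 before adjustment, p under 0.05). Their summed signal was 121 and 197 in the knockout against 471 and 605 in the control. The part of either cell type in the Fabp values was not tested.

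**Figure D4:**
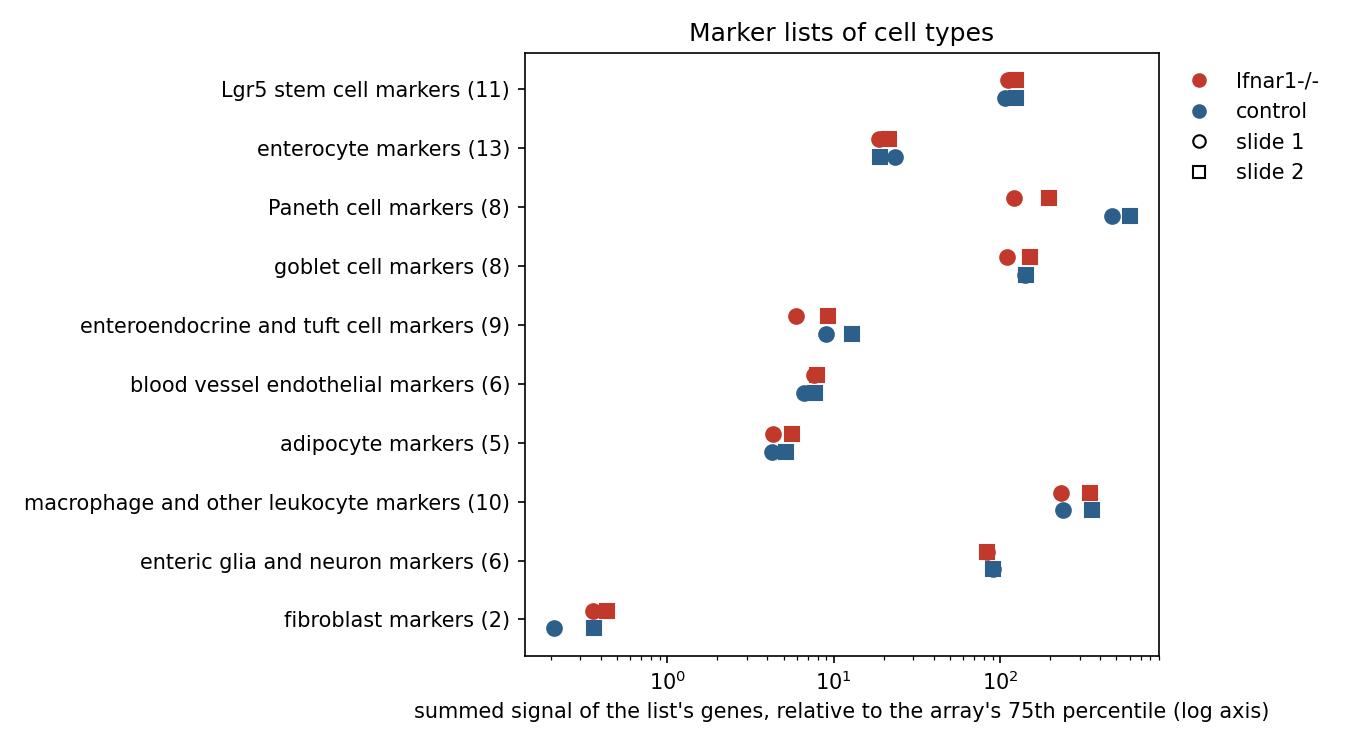
Summed signal of each marker list on each array (horizontal log axis, multiples of the array's 75th percentile; red knockout above, blue control below; circles slide 1, squares slide 2; the number of genes measured stands in brackets). Paneth cell markers, at 121 and 197 in the knockout against 471 and 605 in the control, do not overlap, while the enterocyte and stem cell lists do. Each sum is weighted toward the brightest genes of its list.

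Among 13861 named genes well above background on all 4 arrays, the profiles nearest to that of Fabp5 over the 4 arrays, by root mean square difference of mean-centred log2 values, were those of Fam149a (0.09), Hspa1a (0.10) and Capn2 (0.11). Hspa1a, the inducible heat shock protein 70, was at 0.19 and 0.14 in the knockout and at -0.85 and -0.66 in the control. Capn2, the large subunit of a calcium-dependent protease, was at -2.20 and -2.05 in the knockout and at -3.13 and -3.29 in the control. Fam149a differed by 1.10, as did Fabp5. With 4 arrays such a likeness is a description only.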

How the data were processed

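Per the labels' protocols, total RNA was amplified across whole transcripts and the cDNA labelled with 1 dye, Cy3. The deposited scanner files hold spot intensity, background-corrected, per the file headers, by version 12.0.3.1 of Agilent's Feature Extraction software on an array annotated to mm9, while version 11.5.1.1 stands in the submitters' processing notes. The deposited flags of outlier and well-above-background spots were used as they stand. The authors' series table holds the same intensity multiplied by 1 constant per array (5.60 to 6.68), with column medians of 239 and 223 in the knockout and 249 and 231 in the control; the target of that scaling is unknown, and it served as an alternative.

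Control and outlier spots were left out. Log2 intensity minus each array's 75th percentile was averaged per probe. A probe was kept if both arrays of either group had it well above background (35422 of 55681). Unversioned accessions named 28331 probes through the RefSeq table of GRCm38.p6, whose build differs from the array's. The brightest probe stood for a gene. Group differences came from limma (version 3.58.1, R version 4.3.3; intensity trend, Benjamini-Hochberg at 0.05 over 24865 genes), without a slide term and with the slide, which is also the replicate number, as a block. Samples sharing a slide deviated together (Pearson r = 0.563 across genes between knockout 1 minus knockout 2 and control 1 minus control 2). The members, lists and motifs were chosen with earlier results of these data known. Named genes are the members, up to 4 per lipid list and 2 per marker list by smallest p with the block, and the 3 nearest profiles; others were chosen after their values were seen. The normexp alternative started from median signals.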

Additional observations from a re-analysis of the deposited data

How the results depend on the processing

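The Fabp5 difference of 1.10 lay between 0.95 and 1.14 over 10 alternatives: it was 0.95 with normexp background correction and 1.06 to 1.14 with 1 array left out. Fabp1 ranged from 0.25 to 0.52 and Fabp2 from 0.37 to 0.61, above 0 throughout these alternatives. Fabp6 changed sign, to 0.01 with normexp and 0.55 without knockout replicate 1, and was -0.70 without knockout replicate 2. With the slide as a replicate block, limma called 8 genes higher and 82 lower, against 0 and 0 without it; the block without the intensity trend, added after seeing the data, called 0 and 0 (1036 and 1025 at an unadjusted p under 0.05). Leaving out 1 array gave 0 to 3 higher and 9 to 88 lower: 9 lower without knockout replicate 1, 3 higher and 88 lower without knockout replicate 2, 18 lower without control replicate 1, and 2 higher and 71 lower without control replicate 2. Each of these fits has 1 array in a group, assumed to vary like the other group's 2. The causes were not tested. With 1 array left out, medians of the 8 lipid lists ranged from -0.28 to 0.27. The slide term called 4611 genes, and 0 without the intensity trend (7512 at an unadjusted p under 0.05). The block moves no member's mean difference, since each slide held both groups. With 2 arrays per group the fits have 2 residual degrees of freedom, or 1 with the block, and signals near background, as for Fabp4 and Fabp7, give no fold.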

Other observations

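Limma with the slide block called 8 genes higher in the knockout. Fabp5 is in that count, but it was chosen for this difference, so its call is no test. Among the others was a lipid gene named after its values were seen. Scd2, a desaturase that makes monounsaturated fatty acids, was at 1.91 and 1.03 in the knockout and at 0.37 and -0.92 in the control. Its groups did not overlap, and its group means gave a 3.36-fold rise. It passed with the block (limma, adjusted p = 0.0245) but not without it (limma, adjusted p = 0.999963, unadjusted p = 0.0148). The knockout was higher by 1.55 on slide 1 and by 1.95 on slide 2. Scd2 also differed between slides, by -1.08 for slide 2 minus slide 1 (limma, adjusted p = 0.0128). Without the intensity trend limma called 0 genes in either comparison, so both calls of Scd2 are lost there.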
